A study of Mus musculus with 6 samples.

Results

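Macrophages and related phagocytes engulf particles and dying cells and break them down in lysosomes. As they mature they take on more surface receptors, lysosomal proteins and secreted enzymes. Scavenger receptors take up modified lipoproteins and microbes, C1q and other opsonins tag targets for uptake, and Tyrobp passes signals from receptors such as Trem2. Leukaemia cells driven by HoxA9 and Meis1 are held at a myeloid progenitor stage. Some of the genes described here were already bright in solvent-treated cells, such as Tyrobp (mean intensity 4146), and others dim, such as Cd163 (23.7). Whether they report maturation along the macrophage line in these cells was not tested.

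The genes described here are 36 named macrophage and phagocyte maturation genes, of which 35 have a probe set that carries their symbol alone among the 19937 genes tested. Where a gene had several such probe sets, the one with the highest mean over the 6 arrays stood for it. Spp1 is the gene without one. The series profiled mouse haematopoietic stem and progenitor cells (HSPCs) transformed with HoxA9 and Meis1, a laboratory model of acute myeloid leukaemia. UNC0638, an inhibitor of the histone H3 lysine 9 methyltransferases G9a and GLP, was given for 5 days to 3 samples, and 3 samples received DMSO, the solvent, for the same time. Cells of both groups carry both transgenes and grew in DMEM with serum, IL3, IL6 and SCF, so all measurements come from cells kept in progenitor cytokines. The labels do not say that the 3 samples of a group were separate cultures, so each p-value reflects only how far these samples scatter, and that scatter may be technical. In cells measured in bulk, fewer cells of a type and less RNA per cell cannot be told apart.

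Each value is 1 processed intensity per probe set and array of a whole-transcript Affymetrix mouse array. Intensities ran from 2.74 to 19527 on a linear scale, with array medians of 52.7 to 54.9 in UNC0638 samples and 50.4 to 52.5 in DMSO samples. Differences are given as UNC0638 minus DMSO on the log2(intensity + 16) scale, which understates changes of dim probe sets. They were tested with limma, and a gene is called where its p, adjusted by the method of Benjamini and Hochberg over all genes tested, is under 0.05. The number of arrays limits the precision.

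The marker genes Gpnmb and Mpeg1 were well measured: their lowest intensity on any array was 757, whereas the upper quartile of the arrays lay between 186 and 197. The general macrophage markers Adgre1, which encodes F4/80, and Csf1r, the receptor for macrophage colony stimulating factor, averaged 1109.9 ± 117 and 793 ± 89.5 in UNC0638 samples, against 725 ± 169 and 550.2 ± 82.5 in DMSO samples (SD, n = 3). Both lay above the upper quartile in both groups, and neither difference passed the test (0.63 and 0.52, limma adjusted p = 0.155 and 0.12). Fcgr1, a high-affinity IgG receptor of macrophages, had lower values, at 362 ± 30.4 in UNC0638 samples and 468 ± 62.1 in DMSO samples, without overlap (-0.35, limma adjusted p = 0.224). The members Marco, Cd163, Vsig4, Timd4, Dcstamp and Ocstamp lay under the array median on all 6 arrays.

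The promoters of the 3 members that passed the test are shown so that a reader can see the sequence before the start of transcription. They run from 250 bases before to 50 bases after the gene's start in RefSeq, build GRCm38.p6, all on the plus strand, at chr6:49036268-49036567 for Gpnmb, chr19:12460520-12460819 for Mpeg1 and chr9:7272264-7272563 for Mmp13. Capitals mark matches to TGANTCA, the site of AP-1 factors.
Gpnmb: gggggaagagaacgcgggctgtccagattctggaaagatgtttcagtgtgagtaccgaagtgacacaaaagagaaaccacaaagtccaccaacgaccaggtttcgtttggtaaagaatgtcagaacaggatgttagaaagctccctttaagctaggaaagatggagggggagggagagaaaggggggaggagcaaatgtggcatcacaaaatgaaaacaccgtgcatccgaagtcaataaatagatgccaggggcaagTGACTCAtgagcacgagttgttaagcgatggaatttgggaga
Mpeg1: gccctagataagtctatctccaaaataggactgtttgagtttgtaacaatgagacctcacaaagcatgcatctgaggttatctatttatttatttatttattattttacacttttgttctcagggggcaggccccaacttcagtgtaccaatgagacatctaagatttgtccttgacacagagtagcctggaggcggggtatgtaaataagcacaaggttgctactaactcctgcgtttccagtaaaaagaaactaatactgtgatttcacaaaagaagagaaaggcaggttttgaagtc
Mmp13: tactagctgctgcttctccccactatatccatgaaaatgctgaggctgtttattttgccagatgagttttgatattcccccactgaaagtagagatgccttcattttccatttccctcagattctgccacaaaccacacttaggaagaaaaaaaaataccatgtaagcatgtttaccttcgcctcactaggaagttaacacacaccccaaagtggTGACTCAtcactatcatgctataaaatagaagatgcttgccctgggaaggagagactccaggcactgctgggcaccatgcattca
The Gpnmb match begins at base 9 counted from the start of the gene, and the Mmp13 match begins 35 bases before it. No match to this motif lies in the Mpeg1 window. Of the 35 measured members, 24 had a promoter in the table, with 27 windows among them. An AP-1 match lay in 5 of those 27 windows, those of Gpnmb, Mmp13, Cd68, Mmp12 and Trem2, and in 7.81% of all 32851 promoters of the same length. The search covered both strands. The E-box CACGTG, which is among the sequences that MITF and TFE factors bind, was found in 1 of the 27 windows, that of Plin2. It lay in 7.15% of all promoters. The M-box core TCATGTG, counted separately from CACGTG, was found in 4 windows and in 3.77% of all promoters. GAGGAA, the ETS core bound by PU.1, was found in 10 windows and in 28.3% of all promoters. None of the 3 printed windows holds a match to these other 3 motifs. Such matches describe the sequence and are not evidence of binding.

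Gpnmb and Mpeg1 rose in UNC0638 samples and Mmp13 fell. Gpnmb, a glycoprotein of phagolysosomes and melanosomes, was 1.59-fold higher, Mpeg1, the pore-forming protein perforin-2 of phagosomes, was 1.42-fold higher, and Mmp13, a collagenase, was 2.29-fold lower. The 2 members that rose stand beside 0.371% of all genes called higher, and the 1 member that fell beside 0.301% called lower. With each array centred on its median, 0 members rose and 1 fell, since Gpnmb and Mpeg1 then had limma adjusted p-values of 0.0704 and 0.0539. Without adjustment, 10 members had a p under 0.05 and were higher, against a background of 6.47%, and 3 were lower, against 6.21%. The 3 UNC0638 values all lay above the 3 DMSO values in 11 of 35 members (31.4%), where 9.59% of all genes did so, and all below them in 2 members, Msr1 and Mmp13 (5.71%), where 7.4% of all genes did so. In the other 22 members the groups overlapped. The median difference over the 35 members was 0.13, against 0.012 over all genes tested. A difference above 0 was seen in 27 of 35 members (77.1%) and in 53.9% of all genes. The members were chosen with earlier results of these data known, which can raise such shares. Centring each array on its median left 24 of the 35 above 0, where the median over all genes was -0.020. Leaving out DMSO sample 2 left 23 of the 35 above 0, where the median over all genes was 0.016.

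**Figure D1:**
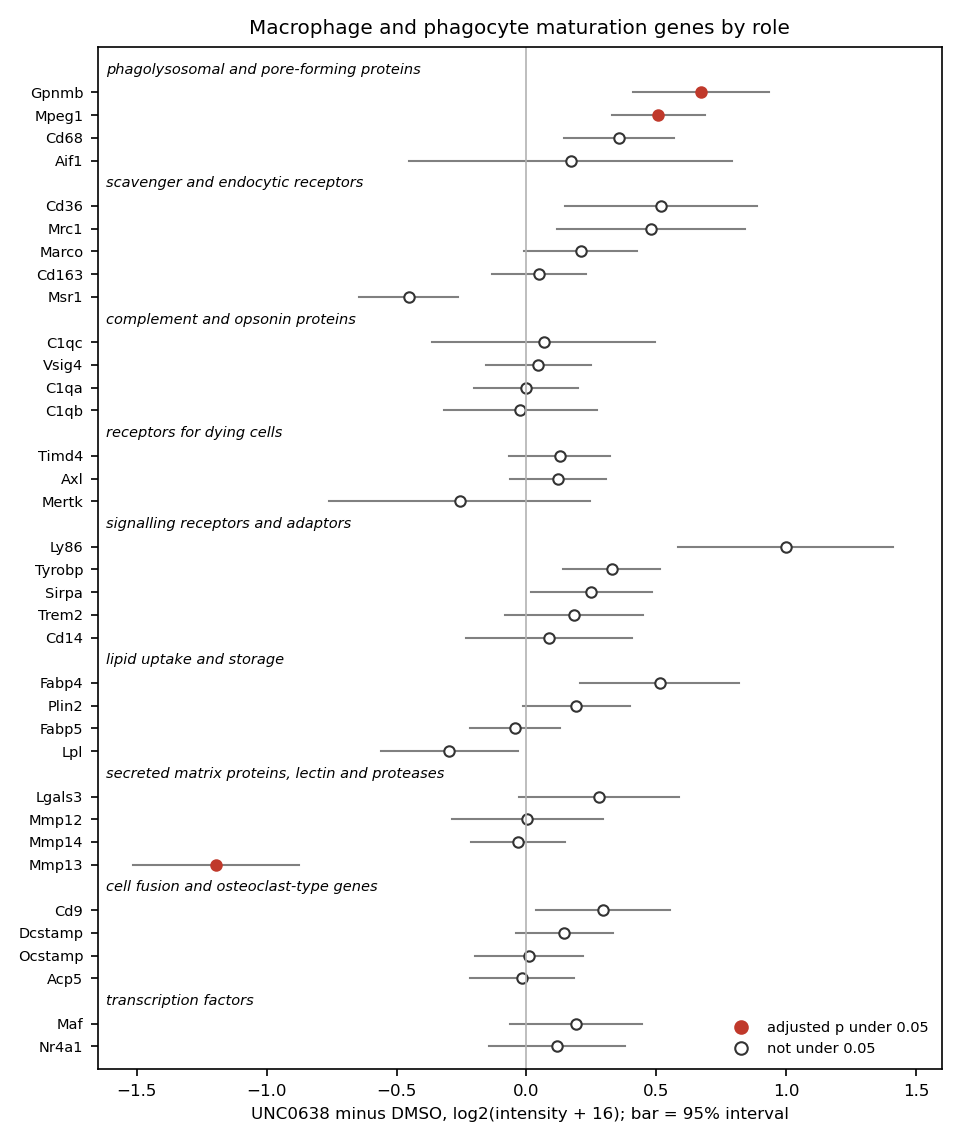
Difference in log2(intensity + 16), UNC0638 minus DMSO, for each of the 35 measured members, grouped by role. Points show the limma estimate and bars its 95% interval; filled points, Gpnmb, Mpeg1 and Mmp13, have an adjusted p under 0.05.

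Among phagolysosomal and pore-forming proteins, Gpnmb had intensities of 2279.7, 2165 and 2353 in UNC0638 samples, against 1470.3, 1194 and 1612 in DMSO samples. Every UNC0638 value lay above every DMSO value, and the DMSO samples were the more spread out, with means of 2266 ± 95.1 and 1426 ± 213 (SD, n = 3) for UNC0638 and DMSO. The difference was 0.67 (SE 0.11, 95% interval 0.41 to 0.93, limma adjusted p = 0.0467). The call was lost when any 1 array was left out, with adjusted p-values of 0.145, 0.147 and 0.128 without UNC0638 samples 1, 2 and 3 and of 0.0938, 0.096 and 0.054 without DMSO samples 1, 2 and 3, while the difference stayed between 0.55 and 0.77.

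Mpeg1 had intensities of 1167, 1155 and 1149 in UNC0638 samples, against 847, 757 and 825 in DMSO samples. The groups did not overlap, and the UNC0638 samples were nearly equal to one another, with means of 1157 ± 9.37 and 809.5 ± 46.9 (SD, n = 3) for UNC0638 and DMSO. The difference was 0.51 (SE 0.078, 95% interval 0.33 to 0.69, limma adjusted p = 0.0343). It too was no longer called without any 1 array: the adjusted p was 0.118, 0.123 and 0.099 without UNC0638 samples 1, 2 and 3 and 0.0642, 0.126 and 0.0841 without DMSO samples 1, 2 and 3, at differences of 0.46 to 0.54.

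The other members of this role did not pass the test. Cd68, a heavily glycosylated lysosomal membrane protein, averaged 3438 ± 51.4 in UNC0638 samples and 2691 ± 285 in DMSO samples (SD, n = 3), without overlap, at a difference of 0.36 (limma adjusted p = 0.143). Aif1, the actin-binding protein Iba1, was scattered in both groups, at 72.2 ± 12.9 and 66.5 ± 32.3, and its lowest value, 32.1, and highest value, 96.3, were both from DMSO samples.

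**Figure D2:**
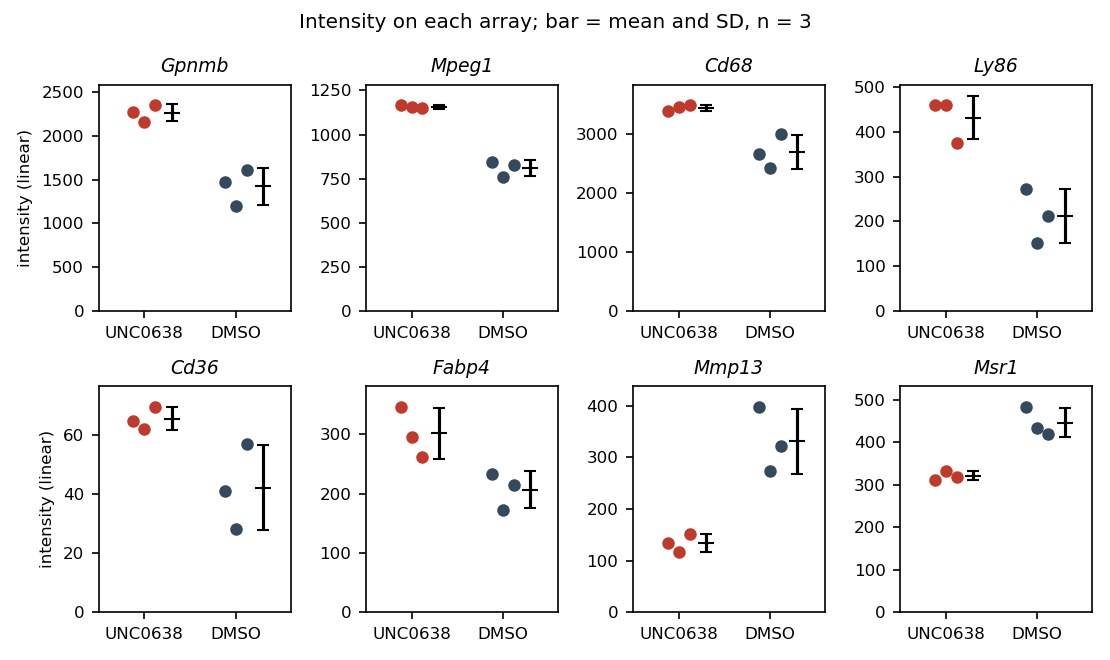
Intensity (linear axis from 0) on each array for 8 members, with the 3 UNC0638 samples on the left and the 3 DMSO samples on the right of each panel; bars show mean and SD. In all 8 panels the groups are apart, upward for Gpnmb, Mpeg1, Cd68, Ly86, Cd36 and Fabp4 and downward for Mmp13 and Msr1, of which Gpnmb, Mpeg1 and Mmp13 passed the test. In 22 of the 35 measured members, none of them shown here, the groups overlapped. Over all genes, 9.59% were apart upward and 7.4% downward.

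The scavenger and endocytic receptors held values on both sides of 0, and 0 of 5 passed the test. Cd36, a receptor for oxidised lipoproteins and fatty acids, had 64.8, 61.9 and 69.6 in UNC0638 samples, against 41.1, 28.2 and 56.9 in DMSO samples. These groups were apart by a small gap, and the difference was 0.52 (95% interval 0.15 to 0.89, limma adjusted p = 0.221). Mrc1, the mannose receptor CD206, had 526, 651 and 753 in UNC0638 samples, against 485, 367 and 516 in DMSO samples, also narrowly apart (0.48, adjusted p = 0.246). Msr1, the class A scavenger receptor, stood on the other side: it had 312, 334 and 319.5 in UNC0638 samples, against 484, 435 and 421 in DMSO samples. The highest UNC0638 value of Msr1 was well under the lowest DMSO value, and its difference of -0.45 (95% interval -0.64 to -0.26) had a limma adjusted p of 0.0596. Marco, which binds bacteria and particles, averaged 52.3 ± 1.79 and 43.3 ± 6.67 with overlap, and Cd163, the haemoglobin scavenger receptor, 25.1 ± 0.213 and 23.7 ± 2.46 in UNC0638 and DMSO samples.

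Of the complement and opsonin genes, 0 of 4 passed the test and all 4 overlapped between the groups. C1qb, C1qc and C1qa, neighbours in the RefSeq gene table, encode the 3 chains of C1q, which starts the classical complement pathway. C1qa had 68.4, 72.1 and 70.6 in UNC0638 samples, against 79.0, 63.8 and 69.0 in DMSO samples. C1qb had 171, 168 and 172 in UNC0638 samples, against 219, 158 and 149.996 in DMSO samples. In both genes the UNC0638 values sat inside the DMSO range. C1qc had 172, 185 and 146 in UNC0638 samples, against 212, 165 and 114 in DMSO samples, and was highest and lowest in DMSO samples as well. The 95% intervals of the differences ran from -0.20 to 0.20 for C1qa, from -0.32 to 0.27 for C1qb and from -0.36 to 0.49 for C1qc. Vsig4, a receptor for complement fragments on tissue macrophages, was dim in both groups, with an interval of -0.16 to 0.25.

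Of the receptors for dying cells, 0 of 3 passed the test. Mertk, a receptor tyrosine kinase that binds apoptotic cells through bridging proteins, had 62.6, 120.0 and 109.7 in UNC0638 samples, against 151, 96.3 and 106 in DMSO samples. UNC0638 sample 1 was the lowest and DMSO sample 1 the highest, and the groups overlapped (interval -0.76 to 0.24). Axl, its relative, averaged 63.5 ± 2.09 and 57.1 ± 4.74, and Timd4, a receptor for phosphatidylserine, 38.4 ± 2.24 and 33.8 ± 3.56 in UNC0638 and DMSO samples, with limma adjusted p-values of 0.619 and 0.622. Timd4 counts as apart by a very thin gap, with a lowest UNC0638 value of 36.13 and a highest DMSO value of 36.12.

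Among signalling receptors and adaptors, Ly86 had the largest difference in size of any member that did not pass the test. Ly86, also called MD-1, is the secreted partner that the Toll-like receptor relative Cd180 needs at the cell surface. It had 459.8, 460.2 and 376 in UNC0638 samples, against 274, 153 and 212 in DMSO samples. All UNC0638 values exceeded all DMSO values, and the means were 432 ± 48.3 and 213 ± 60.4 (SD, n = 3). The difference was 1.00 (SE 0.18, 95% interval 0.58 to 1.41), with a limma adjusted p of 0.0573. It was called in 4 of 17 alternative analyses: without the 40% dimmest genes (adjusted p = 0.0221), with a trended robust prior (0.0227), with a pseudocount of 1 (0.0366) and without DMSO sample 1 (0.0298, at a difference of 1.18).

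Tyrobp, the immunoreceptor adaptor DAP12, had 5360.5, 5164 and 5088 in UNC0638 samples, against 4481, 3984 and 3974 in DMSO samples. The groups were apart, but the difference of 0.33 had a limma adjusted p of 0.13. Trem2, a lipid receptor that signals through Tyrobp, averaged 137 ± 13.2 and 119 ± 18.0 with overlap. Sirpa, which binds CD47 and restrains engulfment, averaged 1843 ± 147 and 1549 ± 160.2, and Cd14, a co-receptor for lipopolysaccharide, 413 ± 31.3 and 393 ± 84.4 in UNC0638 and DMSO samples, both overlapping.

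The lipid genes did not share a direction, and 0 of 4 passed the test. Fabp4, a fatty acid binding protein of adipocytes and macrophages, had 347, 295 and 262 in UNC0638 samples, against 234, 172 and 214 in DMSO samples. The groups were apart, and the difference was 0.51 (95% interval 0.21 to 0.82, limma adjusted p = 0.144). Fabp5 belongs to the same run of neighbouring genes, Fabp5, Pmp2, Fabp9, Fabp4 and Fabp12, and averaged 1669 ± 32.1 in UNC0638 samples and 1722 ± 77.4 in DMSO samples, with overlap. The differences along that run were -0.044 for Fabp5, 0.096 for Pmp2, 0.17 for Fabp9, 0.51 for Fabp4 and -0.070 for Fabp12, and 0 of 5 passed the test. Lpl, lipoprotein lipase, averaged 786 ± 102 and 968 ± 97.3 (difference -0.30, adjusted p = 0.331), and Plin2, a coat protein of lipid droplets, 1272 ± 121 and 1108 ± 10.3 in UNC0638 and DMSO samples (0.19, adjusted p = 0.436). Plin2 was narrowly apart, with a lowest UNC0638 value of 1132 and a highest DMSO value of 1119.

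Of the 4 measured genes for secreted proteins and proteases, 1 passed the test, Mmp13, the member with the largest difference. Mmp13 cleaves fibrillar collagen and is known from cartilage and bone as well as from tissue macrophages. It had 135, 117 and 151 in UNC0638 samples, against 398, 274 and 321 in DMSO samples. Every UNC0638 value lay below every DMSO value, and the means were 135 ± 16.9 and 331 ± 62.6 (SD, n = 3). The difference was -1.20 (SE 0.14, 95% interval -1.52 to -0.88, limma adjusted p = 0.0128). The call was lost without UNC0638 sample 1 (-1.20, adjusted p = 0.0724) or without UNC0638 sample 2 (-1.11, adjusted p = 0.0651) and kept without each of the other 4 samples.

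Mmp13 is the first of 10 metalloproteinase genes in a row in the RefSeq gene table, and it was the 1 of those 10 that passed the test. Mmp1b, Mmp3, Mmp1a, Mmp10, Mmp20 and Mmp7 were dim, with group means from 7.68 to 35.8, under the median of every array. A fall in these genes could hardly be seen, so the row does not show whether the fall is particular to Mmp13. Its neighbour Mmp12, the macrophage elastase, had 1661, 1616 and 1809 in UNC0638 samples, against 1781, 1386 and 1954 in DMSO samples. The UNC0638 values of Mmp12 lay within the DMSO range, and the interval of its difference ran from -0.29 to 0.29. The differences of the 9 other genes ran from -0.17 for Mmp3, a stromelysin, to 0.66 for Mmp27 (limma adjusted p = 0.225). Mmp8, the neutrophil collagenase, averaged 5150.0 ± 212 in UNC0638 samples and 4474 ± 426 in DMSO samples, at a difference of 0.21 (adjusted p = 0.41). Outside that row, the membrane-bound Mmp14 averaged 51.3 ± 3.00 and 52.8 ± 3.33, and Lgals3, the lectin galectin-3, 915 ± 12.6 and 762 ± 163 in UNC0638 and DMSO samples, both with overlap.

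**Figure D3:**
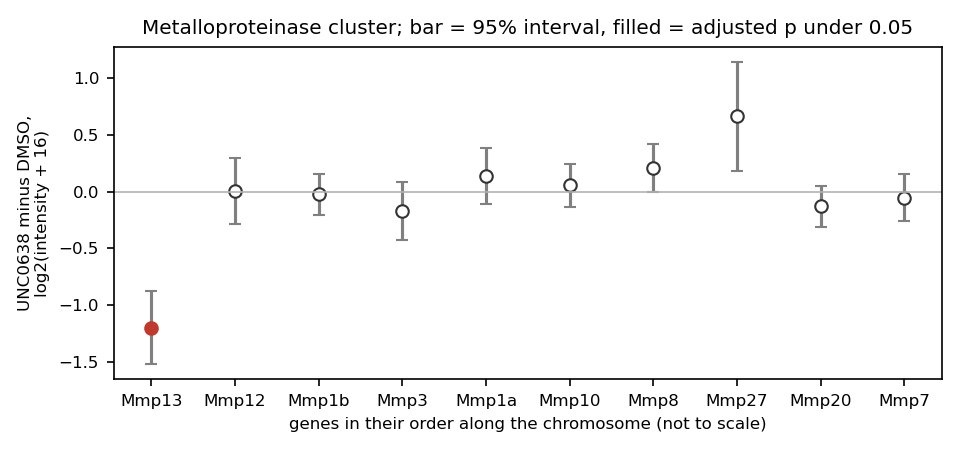
Difference in log2(intensity + 16), UNC0638 minus DMSO, for 10 neighbouring metalloproteinase genes in their order along the chromosome, with 95% intervals. Mmp13, the filled point at -1.20, had an adjusted p under 0.05; the other 9 lay between -0.17 and 0.66 and did not. Mmp1b, Mmp3, Mmp1a, Mmp10, Mmp20 and Mmp7 lay under the array median in both groups.

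The genes of cell fusion and osteoclasts gave 0 of 4 past the test. Cd9, a tetraspanin that restrains macrophage fusion, averaged 1039 ± 128 and 843 ± 81.5 in UNC0638 and DMSO samples, narrowly apart (0.29, limma adjusted p = 0.322). Acp5, the tartrate-resistant acid phosphatase of osteoclasts, averaged 61.9 ± 0.855 and 63.0 ± 7.16 with overlap, and the fusion proteins Dcstamp and Ocstamp were dim, at 24.0 ± 2.03 and 42.9 ± 5.60 in UNC0638 samples and 20.1 ± 1.85 and 42.3 ± 1.58 in DMSO samples. The 2 transcription factors, Maf, a factor of resident macrophages, and Nr4a1, an orphan nuclear receptor of Ly6C-low monocytes, averaged 165 ± 24.5 and 60.8 ± 4.403 in UNC0638 samples and 141 ± 8.17 and 55.2 ± 10.8 in DMSO samples. Neither passed the test (adjusted p = 0.558 and 0.765).

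The spread between samples was uneven. The SD of log2 values was larger among DMSO samples than among UNC0638 samples in 28 of 35 members (80%), against 49.1% of all genes, and its median over the members was 0.074 in UNC0638 samples and 0.15 in DMSO samples, where over all genes it was 0.11 in each. DMSO sample 2 held the lowest DMSO value in 22 of 35 members (62.9%), against 31.6% of all genes, and DMSO sample 1 the highest in 19 (54.3%), against 30.9%. Measured from the DMSO mean, the members' median was 0.15, 0.12 and 0.087 in UNC0638 samples 1, 2 and 3 and 0.076, -0.11 and 0.029 in DMSO samples 1, 2 and 3. The median lay higher in every UNC0638 sample than in every DMSO sample, and the gap between UNC0638 sample 3 and DMSO sample 1 was small. Over all genes those 2 samples had medians of 0.013 and -0.0081, which is a wider gap. The order of these 2 samples therefore depends on how the arrays are scaled.

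**Figure D4:**
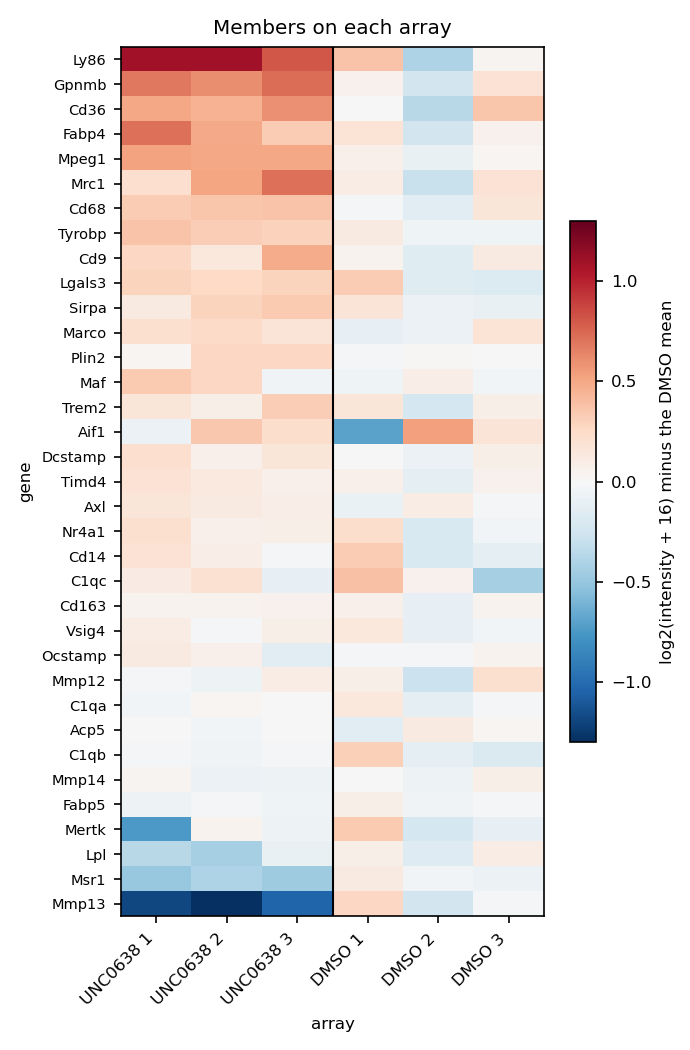
Deviation of each member's log2(intensity + 16) from its DMSO mean (colour) on each of the 3 UNC0638 arrays, left of the line, and the 3 DMSO arrays, right of it, ordered by the difference between the groups. Mmp13 at the bottom was lower in all 3 UNC0638 samples, and DMSO sample 2 was the lowest DMSO sample in 22 of 35 members.

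Other genes of the same pathways were taken from 9 lists that do not hold the members. Of 195 genes listed, 185 were measured, 2 rose (Lrp1 and Cd180) and 1 fell (Cfb), where 0.371% of all genes were called higher and 0.301% lower. The median difference of the 185 was 0.099, and 131 of 185 (70.8%) lay above 0, against 53.9% of all genes. The groups were apart with UNC0638 higher in 45 (24.3%) and lower in 9 (4.86%), against 9.59% and 7.4% of all genes. These lists too were chosen with earlier results of these data known, which can raise such shares.

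In the list for uptake of dying cells 1 of 26 rose. It was Lrp1, a large endocytic receptor that acts in engulfment, with 348, 337 and 333 in UNC0638 samples, against 231, 165 and 173 in DMSO samples (difference 0.80, SE 0.12, limma adjusted p = 0.0297). The groups were far apart, yet the call held among the 6 omissions only without DMSO sample 1 (adjusted p = 0.00907). It was lost without UNC0638 samples 1, 2 and 3 (0.116, 0.122 and 0.0975) and without DMSO samples 2 and 3 (0.102 and 0.0863). Among other phagocytic and pattern receptors 1 of 25 rose. It was Cd180, the surface partner of Ly86, with 1604, 1569 and 1696 in UNC0638 samples, against 955, 963 and 918 in DMSO samples (0.77, SE 0.075, limma adjusted p = 0.00728). The Cd180 groups were tight and apart, and the call was lost only without UNC0638 sample 1 (0.0534). Ly86 and Cd180 both had higher values in all 3 UNC0638 samples, though Ly86 itself missed the threshold.

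In the list of complement receptors and regulators 0 of 13 rose and 1 fell. It was Cfb, factor B of the alternative pathway, with 104, 81.8 and 87.4 in UNC0638 samples, against 159, 142 and 168 in DMSO samples (-0.69, SE 0.10, limma adjusted p = 0.0288). The groups were apart, but the call was lost without each sample in turn, at adjusted p-values of 0.0682, 0.117 and 0.103 without UNC0638 samples 1, 2 and 3 and 0.0779, 0.0613 and 0.0857 without DMSO samples 1, 2 and 3.

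In the other 6 lists 0 genes passed the test in either direction. The gene with the largest difference was Cd300lb, an activating receptor, among 18 Trem2 and Tyrobp partners (0.50, limma adjusted p = 0.22), and Lipa, lysosomal acid lipase, among 25 other lipid genes (0.50, 0.0776). Among 22 macrophage and osteoclast transcription factors it was Klf4 (0.42, adjusted p = 0.224), and Mitf, a factor known to drive Gpnmb in melanocytes and osteoclasts, was at 0.40 (0.0826). The related factors Tfeb, Tfec and Tfe3 in that list were at 0.26, 0.078 and -0.056. A part of Mitf in the Gpnmb difference was not tested. Among 18 osteoclast genes the gene with the largest difference was Atp6v0d2, a subunit of the vacuolar proton pump. It had 611, 525 and 749 in UNC0638 samples, against 319, 109.7 and 159.8 in DMSO samples. Its groups were far apart in level but scattered within each, and the difference of 1.71 had a limma adjusted p of 0.0568. Among 24 other metalloproteinases and inhibitors it was Mmp27 (0.66, adjusted p = 0.225), and among 15 other tetraspanins Tspan2 (0.51, 0.267).

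**Figure D5:**
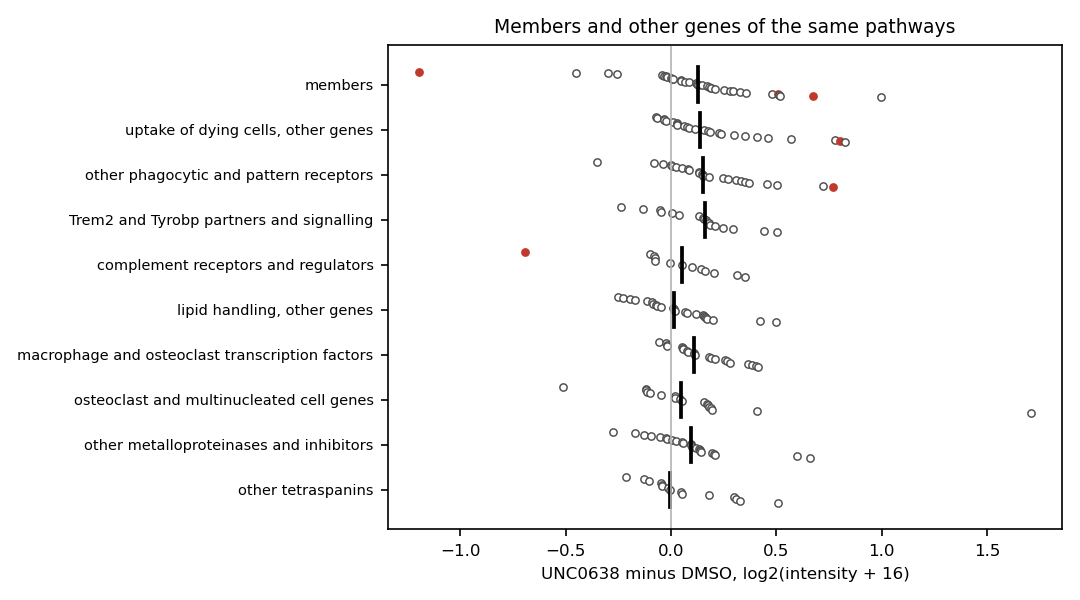
Differences in log2(intensity + 16), UNC0638 minus DMSO, for the 35 measured members (top) and the genes of 9 other pathway lists; each point is a gene, the vertical bar the list's median, and filled points have an adjusted p under 0.05. The members' median lay at 0.13 and that of the 185 listed pathway genes at 0.099.

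Markers of other blood cells were measured beside these genes. The counts of calls below stand beside 0.371% of all genes called higher and 0.301% called lower. Of all genes, 53.9% had a difference above 0, 9.59% were apart with UNC0638 higher and 7.4% apart with UNC0638 lower. Of 9 neutrophil markers 2 rose, Ltf (0.77, limma adjusted p = 0.0437) and Cxcr2 (1.23, 0.00684). All 9 had differences above 0, and 7 were apart with UNC0638 higher. The summed intensity of the 9 ran from 14968 to 18019 in UNC0638 samples and from 13348 to 13769.6 in DMSO samples. Of 7 mast cell and basophil markers 2 rose, Tpsb2 (0.69, 0.0164) and Cma1 (0.73, 0.0181). All 7 had differences above 0, and 3 were apart with UNC0638 higher. Their sums were 9734 to 10498 in UNC0638 samples and 7711 to 8945 in DMSO samples. Among 5 neutrophil progenitor markers 1 lay above 0 and 0 were apart. Of 9 dendritic cell markers 1 rose, Itgax (0.77, 0.0118), with overlapping sums of 626 to 701 and 584 to 665 in UNC0638 and DMSO samples. Of 7 macrophage markers 2 rose, Gpnmb and Mpeg1 themselves, with sums of 9070.1 to 9436 in UNC0638 samples and 5907 to 7434 in DMSO samples. The sum is carried by the brighter markers: Gpnmb, Mpeg1, Cd68, Adgre1 and Csf1r had differences above 0, while Fcgr1 (-0.35, adjusted p = 0.224) and Mertk (-0.26, adjusted p = 0.716) had differences below 0. Of 4 measured megakaryocyte markers 1 fell, Ppbp (-1.84, 0.00684), with sums of 856 to 1068 in UNC0638 samples and 1686 to 2361 in DMSO samples. Of 4 measured erythroid and 5 measured T and NK cell markers 1 each rose, Car1 (0.96, 0.0244) and Nkg7 (0.90, 0.0285). The lists for neutrophil progenitors, stem and progenitor cells, monocytes, eosinophils, B cells and fibroblasts gave 0 calls. Leaving out 1 sample kept the call in 5 of 6 cases for Cxcr2, Itgax and Ppbp, and in 0 to 3 cases for the other 5 of the 8 called markers outside the macrophage list. Processed intensities here do not reach 0, so no marker is at 0. The part of these markers in the members' differences was not tested.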

How the data were processed

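RNA was extracted with Trizol and biotinylated cRNA made from it by the array maker's procedure, per the labels' protocols. The authors deposited 1 processed intensity per probe set for 6 arrays; their summarisation, background correction and normalization remain not given in the sources used here, and such steps can shrink or shift differences of dim probe sets. Of 34760 probe sets, 21640 carry 1 symbol, 1321 several and 11799 none, and 21553 of those with 1 were found in the GRCm38.p6 gene table. For each of 19937 genes the probe set with the highest mean was kept, 954 genes having several. Intensities were transformed as log2(intensity + 16) and fitted with limma 3.58.1 in R 4.3.3 (lmFit, eBayes, 2 groups, no block). The same steps were tested on simulated data.

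Members and lists were chosen with earlier results of these data known. Values on every array were planned for Gpnmb, Mpeg1, members past the threshold and members differing by at least 0.5. Other members with a mean over 64 were to have means, and the rest ranges and counts. Each pathway list was to give its called genes, or otherwise the gene with the largest difference. Values beyond this rule (Cd68, Aif1, Mrc1, Msr1, C1qa, C1qb, C1qc, Mertk, Tyrobp and Mmp12 on every array, dim members' means, Mitf, Tfeb, Tfec, Tfe3, Adgre1, Csf1r and Fcgr1) were chosen after they were seen. So were the single values of Timd4 and Plin2. The alternatives were 2 scalings, a filter on dim genes, 2 probe set rules, another prior, array weights, a replicate block, a threshold of 0.01, 2 pseudocounts and each sample left out.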

Additional observations from a re-analysis of the deposited data

How the results depend on the processing

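Of 17 alternatives, those not named below left 2 members called higher and 1 lower, except that 3 were higher without dim genes and with a trended robust prior. The members called higher were 0 with median centring, with the replicate block and at a threshold of 0.01, 1 with the most variable probe set, with a pseudocount of 1 and with one of 64, and 0 to 1 with a sample left out. The members called lower were 0 at a threshold of 0.01 and with a pseudocount of 64, and 0 to 1 with a sample left out. Of the other pathway genes, 1 was called higher with median centring, at a threshold of 0.01 and with a pseudocount of 64, 4 with a pseudocount of 1, 5 with a trended robust prior, 7 without dim genes, 3 with the replicate block and 0 to 4 with a sample left out. Those called lower were 0 with the replicate block, at a threshold of 0.01, with a pseudocount of 64 and without any 1 sample. Over all genes 134 were called, against 192 without dim genes, 182 with a trended robust prior, 49 with a pseudocount of 64, 73 with the replicate block, 18 at a threshold of 0.01 and 10 to 69 with a sample left out. The cause was not tested.

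The labels number the samples but do not say whether the numbers pair them. Deviations of same-numbered samples correlated at -0.066, 0.11 and 0.017, and those of differently numbered samples at -0.13 to 0.11. With so few samples such values cannot decide whether they were paired. With the replicate block the limma adjusted p was 0.0617 for Gpnmb, 0.0798 for Mpeg1 and 0.0227 for Mmp13.

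The median over the members stayed between 0.075 and 0.18. Of 641 single-gene values, 29 changed sign, over 12 of 38 genes whose differences reach 0.17 at most. C1qa was -0.022 with quantile normalization, -0.032 with median centring, -0.00055 with array weights and -0.00079 with a pseudocount of 64. C1qb was 0.0013 and Fabp5 0.0002245 with quantile normalization, and Fabp5 0.012 with the most variable probe set. Mmp12 was -0.028 with median centring and -0.014 with array weights, and Ocstamp -0.024 with quantile normalization and -0.020 with median centring. With a sample left out the ranges were -0.057 to 0.069 for C1qa, -0.12 to 0.13 for C1qb, -0.14 to 0.11 for Mmp12, -0.039 to 0.092 for Ocstamp, -0.18 to 0.43 for Aif1, -0.0034 to 0.080 for Cd163, -0.15 to 0.26 for C1qc, -0.0049 to 0.11 for Vsig4, -0.012 to 0.25 for Cd14, -0.069 to 0.0032 for Mmp14 and -0.089 to 0.041 for Acp5. The 5 members dropped with the dim genes (Cd163, Vsig4, Timd4, Dcstamp and Ocstamp) have no value under that setting. They lie among the dimmest 40% of genes, where signal over background limits what can be measured.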
